A study of Mus musculus with 12 samples.

Results

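The D-type cyclins, the CDK inhibitors and the Rb family were followed in C2C12 cells, a myoblast line from C3H mouse muscle, with and without silencing of Bach1 and before and after induction of muscle differentiation. The 10 genes were Ccnd1, Ccnd2, Ccnd3, Cdkn1a, Cdkn1b, Cdkn1c, Cdkn2c, Rb1, Rbl1 and Rbl2, and they were taken as every probe of the array that the deposited annotation names after one of them. This gave 21 of the 56605 probes that are not controls, for 10 of the 27306 genes named. All 21 passed the filter on dim probes, as did 29664 probes in all. The cells had been transfected with siControl or with siBach1, a single duplex against Bach1, using Lipofectamine in medium with 10% fetal bovine serum. One set was collected at day 0, before induction. The other was collected at day 2 in medium with 2% horse serum, which was added 24 hours after transfection. Each of the 4 groups had 3 arrays, numbered 1 to 3. No second duplex against Bach1 was on the arrays, so loss of Bach1 and other actions of that duplex cannot be told apart.

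D cyclins bind CDK4 and CDK6 and start the phosphorylation of the pocket proteins Rb1, Rbl1 (p107) and Rbl2 (p130), which frees E2F factors to switch on genes of DNA replication. The INK4 inhibitor Cdkn2c (p18) binds CDK4 and CDK6 directly, while Cdkn1a (p21), Cdkn1b (p27) and Cdkn1c (p57) bind complexes of cyclins and CDKs. When myoblasts are deprived of growth factors they leave the cell cycle, accumulate p21, p57 and Rb1 and turn on muscle genes, and cyclin D3 stays high in myotubes while cyclin D1 is lost. Bach1 is a haem-regulated repressor that pairs with small Maf proteins at antioxidant-type elements.

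Bach1 itself was at 1.55 to 1.78 in siControl and -0.22 to 0.18 in silenced cells at day 0, and at 2.55 to 2.58 against 0.56 to 0.65 at day 2. These values, like all levels given here, are log2 signals relative to the 75th percentile of the same array (log2 units), so that a value of a probe is compared only with the same probe on other arrays. Hmox1, the haem oxygenase gene repressed by Bach1, was 9.86-fold higher at day 0 and 8.72-fold higher at day 2 in siBach1 cells. The 75th percentile corresponded to a signal of 325.5 to 534.4 per array, and 47.6% to 58.9% of probes were well above background. The myoblast markers Des, Myod1 and Cdh15 were above background on all 12 arrays, while Myf5 was not above background on all 3 arrays of any group. The summed linear level of the 5 differentiated muscle markers on the array was 33.1 to 57.1 at day 0 on either siRNA, 1460 to 1600 in siControl and 973 to 1200 in siBach1 cells at day 2. Of 11 markers of other cells, Adgre1, Adipoq, Cdh5 and Epcam were above background on 0 arrays and Cd3e and Ptprc on all 12. Pecam1, an endothelial marker like Cdh5, was above background on all 3 arrays of every group except siBach1 day 0. Plin1, an adipocyte marker like Adipoq, was above background on all 3 arrays of each day 2 group. The summed level of the 11 was 3.86 to 7.77. The arrays measure RNA from whole cultures, so fewer cells of a type and less RNA per cell cannot be told apart. The methods state that the experiments were done in triplicate, and the sources used here do not say whether the 3 arrays of a group came from separate cultures, so the p-values measure the spread between these samples, which may be technical.

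RefSeq promoter windows on GRCm38.p6 were matched for 6 of the 10 genes, in 9 windows. Ccnd1, Ccnd2, Cdkn1c and Rb1 were not matched. The 250 bases before each start site were searched on both strands for E2F letters (TTTCCCGC, TTTGGCGC), the E-box CAGCTG, the Maf-type core TGACNNNGC, the GC box GGGCGG and the cell-cycle element TTTGAA. After the letters had been seen, the E2F letters TTTCGCGC and the p53 half-site were added. Over the 32851 windows of the table, the share with a match was 0.895% for TTTCCCGC, 0.417% for TTTGGCGC, 13% for CAGCTG, 10.2% for TGACNNNGC, 32.7% for GGGCGG, 16% for TTTGAA, 0.256% for TTTCGCGC and 7.13% for the p53 half-site. The motifs of a set may overlap, and a match describes letters only.

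Shown here are both Cdkn1a windows, because the Cdkn1a probes gave different answers, the Rbl1 window, because Rbl1 fell with the E2F target genes, and the Ccnd3 window that held the one Maf-type core among the members. Capitals mark the matches. Both Cdkn1a windows lie on the plus strand, at chr17:29090729-29090978 and chr17:29093519-29093768. Rbl1 lies on the minus strand at chr2:157204535-157204784 and Ccnd3 on the plus strand at chr17:47504801-47505050.
Cdkn1a, window 1: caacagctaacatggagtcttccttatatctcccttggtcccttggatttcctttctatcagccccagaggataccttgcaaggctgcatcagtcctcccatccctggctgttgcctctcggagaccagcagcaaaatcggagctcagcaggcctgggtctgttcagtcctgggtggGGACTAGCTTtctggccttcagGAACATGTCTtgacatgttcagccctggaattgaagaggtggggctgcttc
Cdkn1a, window 2: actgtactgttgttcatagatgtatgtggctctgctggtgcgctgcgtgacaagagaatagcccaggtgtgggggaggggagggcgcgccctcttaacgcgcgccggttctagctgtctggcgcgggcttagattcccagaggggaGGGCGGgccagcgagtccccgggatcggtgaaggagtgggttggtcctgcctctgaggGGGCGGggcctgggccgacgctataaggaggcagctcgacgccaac
Rbl1: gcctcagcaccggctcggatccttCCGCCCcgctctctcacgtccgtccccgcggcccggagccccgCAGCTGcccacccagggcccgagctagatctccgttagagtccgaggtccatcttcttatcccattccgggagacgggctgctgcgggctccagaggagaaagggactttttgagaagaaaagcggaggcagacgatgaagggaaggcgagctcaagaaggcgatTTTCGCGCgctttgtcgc
Ccnd3, window 1: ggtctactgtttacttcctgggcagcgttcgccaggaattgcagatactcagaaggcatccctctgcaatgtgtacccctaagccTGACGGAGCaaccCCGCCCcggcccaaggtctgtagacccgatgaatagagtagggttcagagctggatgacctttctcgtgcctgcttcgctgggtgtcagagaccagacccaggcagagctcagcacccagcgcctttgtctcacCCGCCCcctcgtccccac
Window 1 of Cdkn1a held p53 half-sites that began 73 and 51 bases before the start and no GC box, while window 2 held GC boxes at 104 and 46 bases and no p53 half-site. Rbl1 held TTTCGCGC, letters added after the sequences had been seen, 18 bases before its start, an E-box at 183 and a GC box at 226. The E2F letters listed beforehand, TTTCCCGC and TTTGGCGC, matched no window of a member. The Maf-type core of Ccnd3 began 165 bases before the start, with GC boxes at 152 and 18. Of the windows not shown, that of Cdkn1b held a GC box at 61 bases, one of Cdkn2c held GC boxes at 95, 51 and 40 and the other held no match, Rbl2 held TTTGAA at 201, and window 2 of Ccnd3 held a GC box at 46.

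Silencing of Bach1 lowered most of the gene set in myoblasts before induction. Ccnd1, Ccnd2, Ccnd3, Cdkn2c, Rb1 and Rbl1 were lower at day 0, Cdkn1b was higher, and Cdkn1a, Cdkn1c and Rbl2 did not pass the test. By probe, 13 of 21 were called at an adjusted p under 0.05 (limma, Benjamini-Hochberg over all tested probes), 1 higher and 12 lower, where 17.1% of all tested probes were called, 8.8% higher and 8.32% lower. Some of the 12 lower probes are of the same gene, and the genes were chosen with earlier results of these data known. A change of at least 2-fold as well was found for 4 probes, all lower, against 1.98% of all probes called lower at that size. The siRNA groups did not overlap on 17 of the 21, against 37.3% of all probes. The median difference over the 21 probes was -0.71, against 0.09 over all tested probes.

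At day 2 Ccnd1 was no longer called, and Cdkn1c and 1 of the 3 probes of Cdkn1a were lower. Again 13 probes were called, 1 higher and 12 lower, where 12% of all probes were called, 5.75% higher and 6.26% lower. The genes with a lower probe were Ccnd2, Ccnd3, Cdkn1a, Cdkn1c, Cdkn2c, Rb1 and Rbl1, and Cdkn1b was higher. At least 2-fold lower were 3 probes, against 0.651% of all probes, the groups did not overlap on 14, against 32.8%, and the median was -0.61 against -0.01. The contrasts at day 0 and day 2 share no arrays, but they come from the same fit and the same duplex. Same-numbered arrays also deviated together, so the contrasts are not independent. In both, 11 of the 21 probes, some of them of the same gene, were called in the same direction, where 4.75% of all tested probes were.

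**Figure D1:**
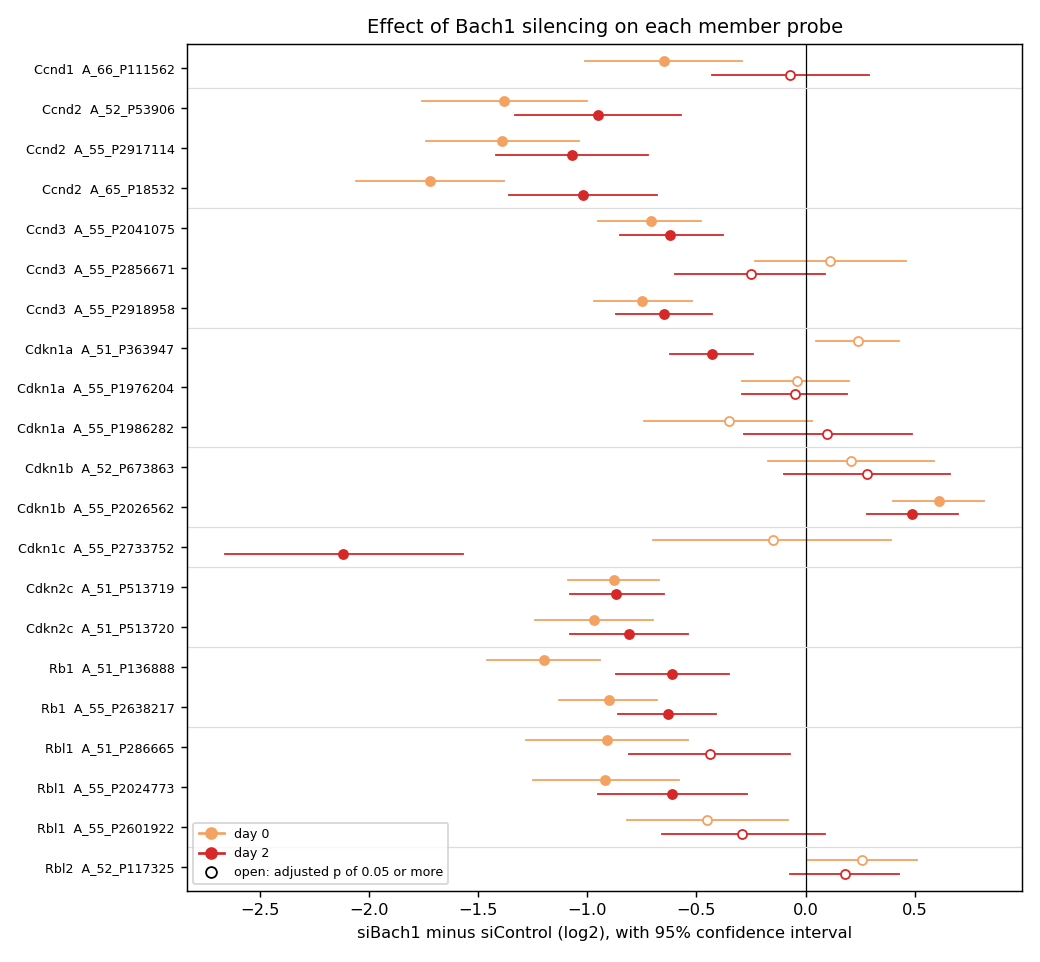
Difference between siBach1 and siControl cells (log2, x axis) for each of the 21 member probes (y axis) at day 0 and day 2, with 95% confidence intervals from limma. Filled points passed the test: Ccnd2, Cdkn2c and Rb1 lie left of 0 on every probe at both days, Cdkn1b A_55_P2026562 lies to the right, and Cdkn1c is far to the left at day 2 only.

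Among the D cyclins, Ccnd2 was the one that silencing lowered most, while Ccnd1 was mainly a gene of the day. Ccnd2 stood at 5.51, 5.46 and 5.80 in siControl and 4.35, 4.12 and 4.13 in siBach1 cells at day 0 on its brightest probe, A_55_P2917114. At day 2 it stood at 4.79, 5.22 and 4.80 against 3.85, 3.65 and 4.10. At either day every siBach1 array was below every siControl array. Ccnd2 was 2.62-fold lower at day 0 (log2 -1.39 ± 0.16 SE, n = 3 per group, limma adjusted p = 0.00027) and 2.10-fold lower at day 2 (-1.07 ± 0.16, limma adjusted p = 0.0027). The other probes of the gene, A_52_P53906 and A_65_P18532, gave -1.38 and -1.72 at day 0 and -0.95 and -1.02 at day 2, all called. In siControl cells Ccnd2 fell over differentiation by 0.65 to 0.78 on the 3 probes, all called. In siBach1 cells the change was -0.35, -0.33 and 0.02, none called, and the difference between the changes had an adjusted p of 0.34, 0.46 and 0.097 (limma). Its level was highest in siControl cells at day 0, followed by siControl at day 2, and the siBach1 groups at day 0 and day 2 came last and did not overlap on A_55_P2917114, where the fall of 0.33 had an adjusted p of 0.099, and of 0.043 within slide 1 (-0.48) or without siBach1 day 2 replicate 3 (-0.45).

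Ccnd1, the cyclin of proliferating myoblasts, was at 5.24, 5.40 and 5.50 in siControl and 4.78, 4.61 and 4.81 in siBach1 cells at day 0. At day 2 it was at 2.57, 2.75 and 2.96 against 2.35, 2.73 and 2.99, and these groups overlapped. The fall over differentiation was 6.16-fold in siControl cells (log2 -2.62 ± 0.16 SE) and 4.12-fold in siBach1 cells (-2.04 ± 0.16), with limma adjusted p of 5.9e-07 and 2.8e-06. At day 0 silencing lowered Ccnd1 1.57-fold (-0.65 ± 0.16, limma adjusted p = 0.021), a call that was lost at 0.068 without siControl day 0 replicate 2 or replicate 3 and at 0.070 without siBach1 day 0 replicate 2. At day 2 the difference was -0.07, with a 95% interval of -0.43 to 0.29. The difference of the effects between days was 0.58, with an adjusted p of 0.18 and of 0.049 with the replicate number as a block.

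Ccnd3, the cyclin of differentiated myotubes, rose instead. Its brightest probe, A_55_P2918958, read 6.08, 5.91 and 6.13 in siControl and 5.37, 5.30 and 5.22 in siBach1 cells at day 0, then 7.66, 7.57 and 7.50 against 7.02, 7.02 and 6.75 at day 2. All 4 groups were apart on this probe, in the order siControl day 2, siBach1 day 2, siControl day 0 and siBach1 day 0. The rise was 2.90-fold in siControl and 3.1-fold in siBach1 cells, so that silencing lowered the level 1.68-fold before and 1.57-fold after it (log2 -0.75 and -0.65, each ± 0.10 SE, limma adjusted p = 0.00075 and 0.0033). The difference of these effects was 0.10, with a 95% interval of -0.22 to 0.41. Probe A_55_P2041075, named after the same transcript, gave -0.71 and -0.62. The third probe, A_55_P2856671, named after a cDNA clone, rose 1.85-fold and 1.43-fold over differentiation but gave 0.11 and -0.25 for silencing, neither called. Its rise in siBach1 cells had an adjusted p of 0.015, and of 0.056 without siBach1 day 2 replicate 2 or without siBach1 day 0 replicate 3.

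**Figure D2:**
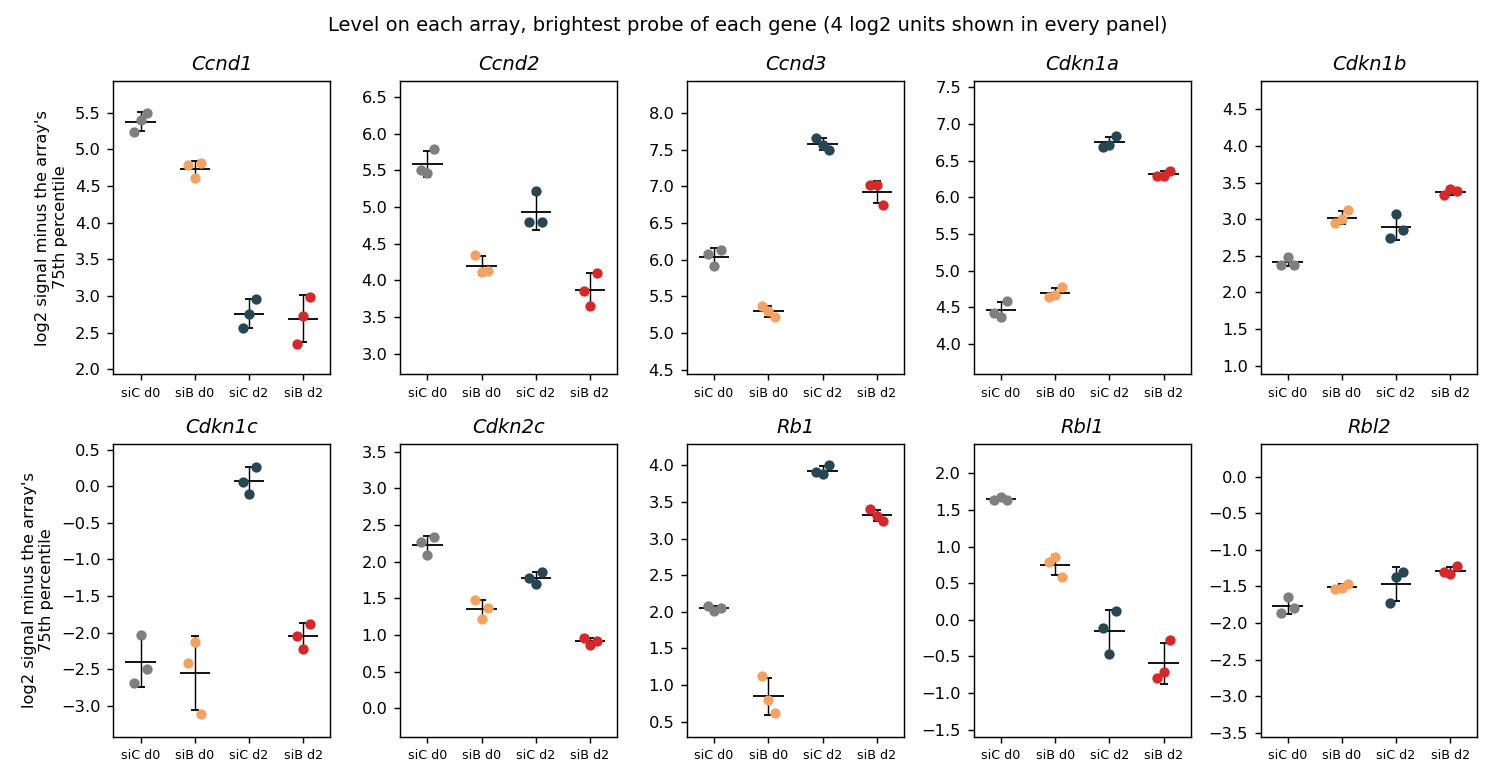
Normalized log2 signal, with the 75th percentile of each array set to 0 (y axis), on each of the 12 arrays for the brightest probe of each gene, with siC for siControl, siB for siBach1, d0 and d2 for the days, bars for the mean and whiskers for the SD of 3 arrays. Every panel spans the same range: Ccnd1 and Rbl1 drop from day 0 to day 2, Ccnd3, Cdkn1a and Rb1 climb, and Cdkn1c climbs in siControl cells while its siBach1 arrays at day 2, at -2.22 to -1.88, overlap those of day 0.

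Of the CIP/KIP inhibitors, Cdkn1c and the bright probe of Cdkn1a rose on differentiation in siControl cells and rose less in siBach1 cells. Probe A_55_P1976204 of Cdkn1a rose by 1.45 in siControl and 1.44 in siBach1 cells. Probe A_55_P1986282 of Cdkn1a changed by 0.10, not called, in siControl cells and rose by 0.56 in siBach1 cells. Cdkn1c, the gene of p57, which takes part in the cell-cycle exit of muscle cells, was at -2.68, -2.03 and -2.49 in siControl and -2.42, -2.13 and -3.11 in siBach1 cells at day 0. At day 2 it was at 0.06, -0.11 and 0.27 in siControl against -2.04, -2.22 and -1.88 in siBach1 cells. The siControl arrays at day 2 stood above the other 9, which overlapped among groups. The rise was 5.54-fold in siControl cells (log2 2.47 ± 0.25 SE, limma adjusted p = 1.3e-05). In siBach1 cells it was 1.42-fold (0.51 ± 0.25, limma adjusted p = 0.11), with 0.033 when siBach1 day 0 replicate 2 was left out. The level in silenced cells was 4.33-fold lower at day 2 (-2.12 ± 0.25, limma adjusted p = 0.00078), against -0.15 at day 0, with a 95% interval of -0.70 to 0.39. The difference between the effects was -1.96 ± 0.35, with a limma adjusted p of 0.016.

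Cdkn1a, the gene of p21, showed the same direction on its bright probe with a smaller size. Probe A_51_P363947 read 4.42, 4.36 and 4.59 in siControl and 4.64, 4.67 and 4.78 in siBach1 cells at day 0. At day 2 it read 6.69, 6.72 and 6.84 in siControl and 6.30, 6.30 and 6.36 in siBach1 cells. The groups were apart at either day, with siBach1 above siControl at day 0 and below it at day 2. The rise was 4.90-fold in siControl (log2 2.29 ± 0.08 SE, limma adjusted p = 2.6e-08) and 3.08-fold in siBach1 cells (1.62 ± 0.08, limma adjusted p = 2.1e-07). The silencing effect was 0.24 at day 0, with an adjusted p of 0.083 and of 0.019 with the replicate number as a block, and -0.43 at day 2, with an adjusted p of 0.01, which became 0.069 with no filter on dim probes. The difference between days was -0.67 ± 0.12 (limma adjusted p = 0.017, and 0.051 without siBach1 day 2 replicate 1). With no filter this call and that of Cdkn1c were lost, at 0.11 and 0.083, and within slide 1 at 0.065 and 0.062. These differences on A_51_P363947 and on Cdkn1c were the only calls among the 21 probes in the test between days, where 4.59% of all tested probes were called, 2.39% with a higher and 2.2% with a lower value at day 2. Cdkn1c alone also passed 2-fold, against 0.458% of all probes called lower at that size.

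The Cdkn1a probes did not agree on silencing. Probe A_55_P1976204, named after the cDNA U09507, rose under either siRNA, by 1.45 and 1.44 and by 0.75 and 0.54 with normexp background correction. Silencing gave -0.04 at day 0 and -0.05 at day 2, with 95% intervals of -0.29 to 0.20 and -0.29 to 0.19. This probe was dim, and only 1 of 3 siBach1 arrays at day 0 had it above background, so that its rise has no firm size. Probe A_55_P1986282, named after the transcript NM_001111099 where the bright one is named after NM_007669, read -0.61, -0.77 and -0.84 in siControl cells at day 0 and -0.69, -0.78 and -0.43 at day 2. Its change in siControl cells was not called (0.10, with a 95% interval of -0.28 to 0.48). In siBach1 cells it rose by 0.56 with an adjusted p of 0.018, which became 0.062 without siBach1 day 0 replicate 1, 0.074 without siBach1 day 2 replicate 2 and 0.067 without siBach1 day 2 replicate 3. The promoter table does not pair its windows with these transcripts.

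**Figure D3:**
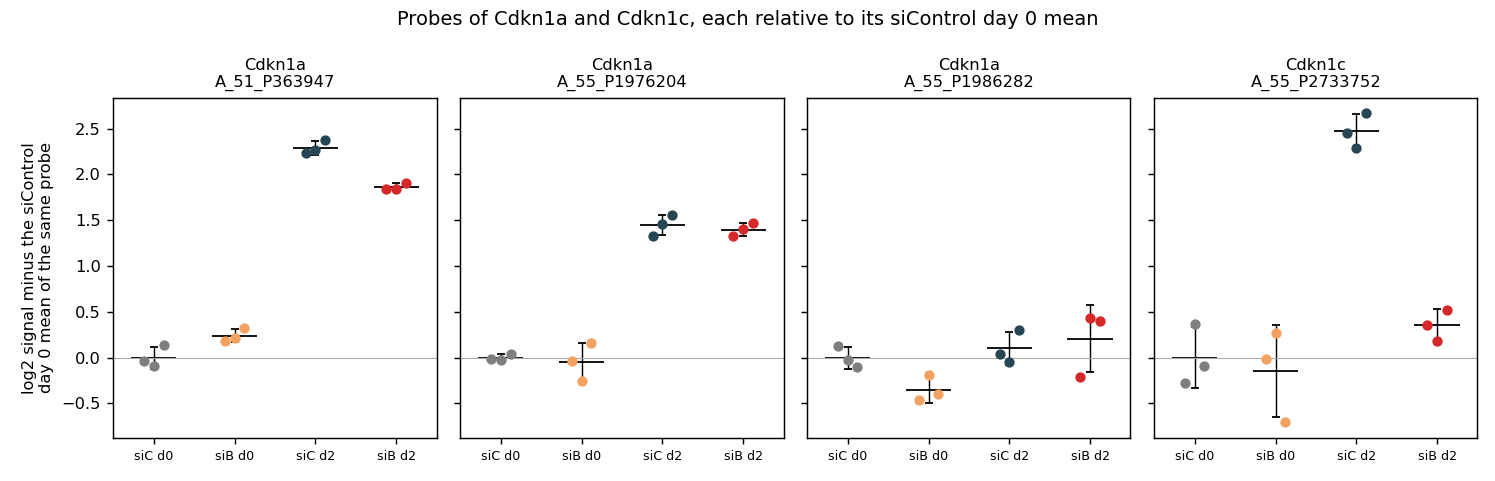
Log2 signal minus the siControl day 0 mean of the same probe (y axis) for the 3 Cdkn1a probes and the Cdkn1c probe, by siRNA and day (siC for siControl, siB for siBach1), with points for arrays, bars for means and whiskers for the SD. The bright Cdkn1a probe A_51_P363947 rises by 2.29 in siControl and ends lower in siBach1 cells at day 2, and A_55_P1976204 rises by 1.45 and 1.44 in siControl and siBach1 cells. A_55_P1986282 changes by 0.10, not called, in siControl and rises by 0.56 in siBach1 cells, and Cdkn1c rises by 2.47 in siControl cells.

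Cdkn1b, the gene of p27, was the one member called higher after silencing, at both days. Probe A_55_P2026562 read 2.38, 2.48 and 2.38 in siControl and 2.94, 3.001 and 3.12 in siBach1 cells at day 0. At day 2 the readings were 2.74, 3.07 and 2.85 against 3.33, 3.41 and 3.39. In order, siBach1 day 2 was highest, siBach1 day 0 and siControl day 2 overlapped, and siControl day 0 was lowest. Silencing raised it 1.52-fold at day 0 and 1.40-fold at day 2 (log2 0.61 and 0.49, each ± 0.10 SE, limma adjusted p = 0.0018 and 0.0099). The day 2 call was lost at 0.087 with the methods' t-test after Benjamini-Hochberg and at 0.061 with no filter on dim probes. Over differentiation it rose by 0.48 in siControl and 0.35 in siBach1 cells, both called. Probe A_52_P673863, named after a cDNA clone, was above background on 2 of 3 siControl and 1 of 3 siBach1 arrays at day 0, and gave 0.21 and 0.28 for silencing, neither called. Its rise of 0.70 in siBach1 cells was 0.19 and not called with normexp.

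Cdkn2c, the INK4 inhibitor p18, was lower after silencing by nearly the same amount on both probes and at both days. Probe A_51_P513719 read 2.26, 2.09 and 2.34 in siControl and 1.48, 1.22 and 1.37 in siBach1 cells at day 0. At day 2 it read 1.78, 1.69 and 1.86 against 0.96, 0.86 and 0.92. All 4 groups were apart, with siControl above siBach1 cells throughout and day 0 above day 2 under each siRNA. Silencing lowered the level 1.84-fold and 1.82-fold (log2 -0.88 and -0.87, each ± 0.10 SE, limma adjusted p = 0.00022 and 0.00061), and the effects differed between days by 0.01, with a 95% interval of -0.29 to 0.31. Probe A_51_P513720 gave -0.97 and -0.81. Over differentiation the gene fell by 0.45 and 0.51 on its 2 probes in siControl and by 0.44 and 0.35 in siBach1 cells, all called. The fall of 0.35 lost its call, at 0.061 to 0.097, without siBach1 day 0 replicate 1 or 3 and without siBach1 day 2 replicate 1 or 2.

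The pocket proteins took different courses. Rb1, the founding member of the family and the one that climbs in muscle cells, read 2.07, 2.02 and 2.05 in siControl and 1.12, 0.80 and 0.61 in siBach1 cells at day 0 on probe A_51_P136888. At day 2 it read 3.90, 3.88 and 3.999 against 3.40, 3.31 and 3.25, and the 4 groups were apart. Rb1 was 2.30-fold lower after silencing at day 0 (log2 -1.2 ± 0.12 SE, limma adjusted p = 0.00011) and 1.53-fold lower at day 2 (-0.61 ± 0.12, limma adjusted p = 0.009). It rose 3.68-fold over differentiation in siControl and 5.55-fold in siBach1 cells. The difference between these changes was 0.59 with an adjusted p of 0.07. That p was 0.039 with the replicate number as a block and 0.020 without siBach1 day 0 replicate 1. Probe A_55_P2638217 gave -0.90 and -0.63 for silencing and 3.46-fold and 4.16-fold rises, with a difference of 0.27 (limma adjusted p = 0.32).

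Rbl1, the gene of p107 and itself an E2F target, moved against Rb1 over differentiation. Probe A_51_P286665 read 1.64, 1.68 and 1.63 in siControl and 0.79, 0.85 and 0.59 in siBach1 cells at day 0. The day 2 readings were -0.12, -0.46 and 0.12 against -0.80, -0.71 and -0.28. The siRNA groups were apart at day 0 and overlapped at day 2. Its fall was 3.49-fold in siControl and 2.53-fold in siBach1 cells, and the other probes fell by 1.62 and 1.68 and by 1.32 and 1.52, or by 0.82 to 1.00 and by 0.73 with normexp. Silencing lowered it 1.88-fold at day 0 (log2 -0.91 ± 0.17 SE, limma adjusted p = 0.0045) and by 0.44 at day 2 with an adjusted p of 0.12. The day 2 value passed, at 0.045 and 0.048, without siControl day 2 replicate 2 and without siBach1 day 2 replicate 3. Probe A_55_P2024773 gave -0.92 and -0.61 (-0.34 with normexp), both called, although the day 2 call was lost at 0.089 without siControl day 2 replicate 1 and at 0.076 without siControl day 2 replicate 3. Probe A_55_P2601922 gave -0.45 and -0.29, neither called, and at day 0 passed at 0.042 with the replicate number as a block. Rbl2, the gene of p130, which is known from quiescent cells, ranged only from -1.86 to -1.23 over all arrays. The silencing effect was 0.26 and 0.18, with adjusted p of 0.15 and 0.36. Its rise of 0.30 in siControl cells had an adjusted p of 0.043 that became 0.098 to 0.14 when replicate 1 or 3 of siControl day 0 or replicate 2 or 3 of siControl day 2 was left out.

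Over differentiation as a whole, most members moved in siControl cells, but so did most of the array. Of the 21 probes 20 were called, 11 higher and 9 lower, where 53.4% of all tested probes were, 24.6% higher and 28.7% lower. Cdkn1a A_55_P1976204 and Cdkn1b A_52_P673863, both counted as higher, were not above background on every array at day 0. Over probes above background on all 12 arrays, which leaves these probes out, the calls numbered 18 in siControl and 14 in siBach1 cells. The shares in this paragraph are over all 29664 tested probes and not over that stricter set. At least 2-fold changes were found for 11, against 20% of all, and the days did not overlap on 19, against 61.9%. In siBach1 cells 16 were called, 10 higher and 6 lower, where 56.1% of all tested probes were, 23.8% higher and 32.3% lower. Here 10 passed 2-fold, against 20.5%, and the days did not overlap on 18, against 61.3%. These contrasts share no arrays but come from the same fit, and same-numbered arrays deviated together, so they are not independent. In both, 15 of 21 probes were called in the same direction, against 42.6% of all probes. Those called in siControl cells alone were the 3 Ccnd2 probes, Cdkn1c and Rbl2, and of these only Cdkn1c differed between the siRNAs by the test of the difference.

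**Figure D4:**
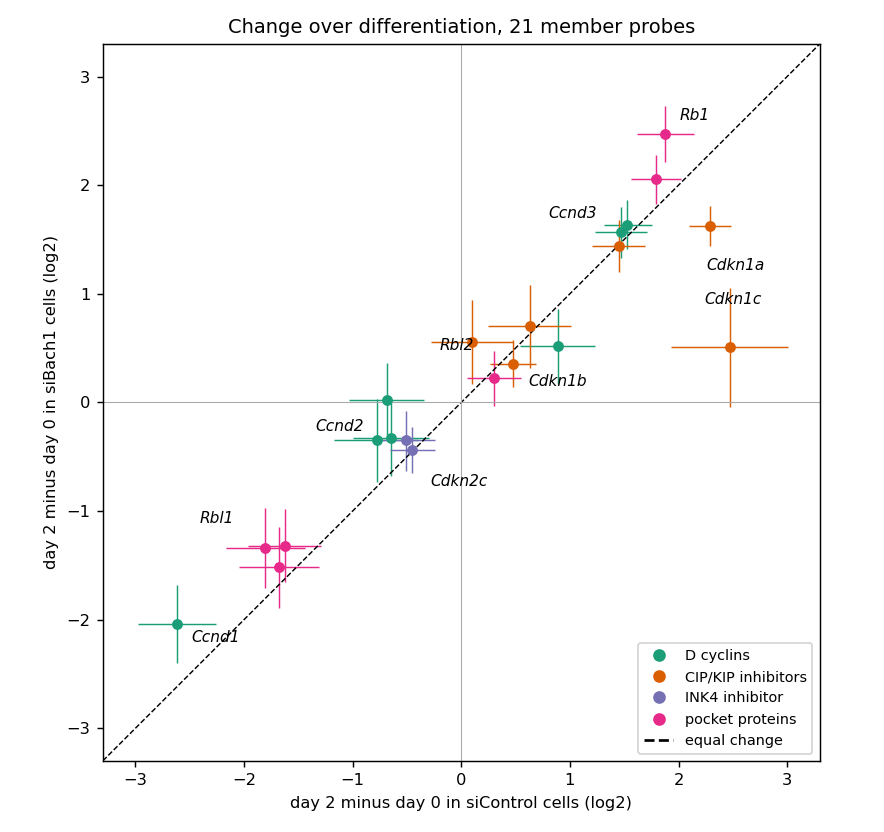
Change from day 0 to day 2 (log2) in siControl cells (x axis) against that in siBach1 cells (y axis) for the 21 member probes, with 95% confidence intervals and a dashed line of equal change. Ccnd1, at -2.62 and -2.04, Rb1 A_51_P136888, at 1.88 and 2.47, and Ccnd2 A_65_P18532, at -0.68 and 0.02, lie above the line. Cdkn1c, at 2.47 and 0.51, and the bright Cdkn1a probe, at 2.29 and 1.62, lie below it. Only Cdkn1c and the bright Cdkn1a probe passed the test of the difference.

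Other genes of the pathway were counted over 1 probe per gene in 7 lists, 55 of whose 57 genes were tested; Cdkn2a and Cdkn2b were above background on 0 arrays of any group. At day 0 silencing raised 6 and lowered 13 of the 55, with a median of -0.18, where 10.1% of the 15642 genes tested were called higher and 9.85% lower. Cdk6, a partner of the D cyclins, fell by 1.43, and the 4 probes of Cdk4, the other, gave 0.01 to 0.11, none called. Ccne1 rose by 0.82, and Ccna2 and Cdk2, which act later in the cycle, fell by 0.76 and 0.49. E2f6 and E2f5, the latter a partner of the p107 and p130 proteins, fell by 1.35 and 1.12 (E2f5 by 0.69 with normexp background correction), and E2f3 rose by 0.36. Mybl1 and Mybl2, which work with the MuvB complex, fell by 1.17 each. The inhibitors Cdkn3 and Cdkn2d fell by 0.74 and 0.60. Of 12 E2F target genes 4 fell (Cdc6 by 0.67, Mcm5 by 0.66, Tk1 by 0.64 and Mcm2 by 0.46) and none rose, with a median of -0.45. These 4 calls were each lost without any 1 of the 6 arrays compared, at adjusted p of 0.051 to 0.11. Fbxw7 and Skp1a, parts of SCF ubiquitin ligases, rose by 0.48 and 0.32, and Foxo3, a factor that can raise p21 and p27, by 0.36. The Mybl2 call was lost at 0.051 without siControl replicate 3, that of Ccna2 at 0.056 and 0.050 without siControl or siBach1 replicate 2, and that of Skp1a at 0.052 to 0.064 without siControl replicate 1 or 2 or siBach1 replicate 3. The calls of E2f3 and Foxo3 were lost, at 0.052 to 0.13, without siControl replicate 1 or 2 or siBach1 replicate 2 or 3, and that of Foxo3 also without siBach1 replicate 1.

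At day 2 silencing raised 1 and lowered 7 of the 55, with a median of -0.21, against 6.38% higher and 7.4% lower over all genes tested. E2f2 fell by 0.85, Ccna2 by 0.66, Cdkn3 by 0.63, Cdk6 by 0.46 and E2f5 by 0.36, and E2f3 rose by 0.35. Myog and Myod1, myogenic factors that can raise p21, fell by 0.98 and 0.48 (limma adjusted p = 0.016 and 0.036), beside the lower Cdkn1c and bright Cdkn1a probe. Of the 5 differentiated muscle markers Myog was the one called, and the other 4 were at -0.57 to -0.24 on their brightest probes. The part of these genes in the members' results was not tested. The Myod1 call was lost at 0.058 to 0.11 without any 1 of the 6 arrays compared, and the Myog call at 0.053 without siControl replicate 1 and at 0.055 without siBach1 replicate 3. Those of Ccna2, Cdkn3 and E2f5 were lost, at 0.060 to 0.13, without replicate 1 or 3 of siControl or replicate 1 or 2 of siBach1 cells, and that of E2f3, at 0.061 to 0.10, without replicate 1 or 2 of siControl or replicate 2 or 3 of siBach1 cells. Of the 12 E2F target genes 0 were called at day 2 in limma, where Tk1 (-0.43) and Tyms (-0.48) had an unadjusted p under 0.05, and the median was -0.24. The silencing effects at the 2 days differed by the test for Cdk6 (0.98), E2f6 (1.05), E2f5 (0.76), E2f2 (-0.72) and Fbxw7 (-0.65), against 3.08% higher and 2.74% lower over all genes tested. All 5 of these calls were lost with no filter on dim probes, at 0.053 to 0.16, and within slide 1, at 0.058 to 0.087. The Fbxw7 call was also lost, at 0.051 to 0.074, without any 1 of 9 of the 12 arrays, all but replicate 1 and 3 of siBach1 day 0 and replicate 3 of siControl day 2, and that of E2f2 at 0.050 without siBach1 day 2 replicate 1.

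Over differentiation in siControl cells 41 of the 55 fell and 6 rose, with a median of -1.20, against 30.1% lower and 27.7% higher over all genes tested. All 12 E2F target genes fell by at least 2-fold, with a median of -2.18, led by Tk1 at -2.70, Mcm5 at -2.65, Cdc6 at -2.64 and Mcm3 at -2.57. Of the 12 cyclin and kinase partners 10 fell, Cdk1 by 2.14, Ccna2 by 2.10 and Ccne1 by 2.01 among them. Ccne2 was above background on 0 arrays at day 2, so that its fall is a bound: at least 2.36-fold in siControl and 1.88-fold in siBach1 cells (limma adjusted p = 6.5e-05 and 1.6e-05), set against the lowest signal above background on each array. With normexp its fall was 0.37 and 0.53 on the log2 scale. Mybl2 fell by 3.51, Lin9 by 1.62, Mybl1 by 1.31 and Lin54 by 0.90, and of the E2F and DP factors E2f7 fell by 2.01, E2f1 by 1.47, and Tfdp1 and E2f3 by 1.20 each. Skp2 and Cks1b, which target p27 for degradation, fell by 1.31 and 1.73, while Fbxo31, which targets cyclin D1, and Fbxw7 rose by 0.97 and 0.82. Cdkn3 and Cdkn2d fell by 1.64 and 0.66. Among the genes that act on p21 and cyclin D, Myog and Foxo3 rose by 4.85 and 1.17, and Myc and Trp53 fell by 1.5 and 0.96.

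In siBach1 cells 37 of the 55 fell and 6 rose, against 33.3% lower and 26.7% higher over all genes tested. All 12 E2F target genes were again lower by at least 2-fold, with a median of -2.01, led by Tk1 at -2.48, Mcm5 at -2.39, Tyms at -2.29 and Mcm3 at -2.27. Ccne1 fell by 2.36, Ccnb1 by 2.30 and Cdk1 by 2.16. Mybl2 fell by 2.59, Lin9 by 1.5, Lin54 by 0.72 and Rbbp4 by 0.60, the last by 0.23 and not called with quantile normalization. E2f7 fell by 1.94, Tfdp1 by 1.29, E2f1 by 1.21 and E2f3 by 1.20, and Cdkn3 by 1.53. Cks1b and Skp2 fell by 2.19 and 2.00, and Fbxo31 rose by 1.05. Skp1a, at -0.25, passed the test but was at 0.09 with quantile normalization, and its call was lost at 0.057 without siBach1 day 2 replicate 1 and at 0.056 without siBach1 day 0 replicate 3. Myog rose by 3.77 and Foxo3 by 1.01, and Myc and Trp53 fell by 1.46 and 1.26.

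**Figure D5:**
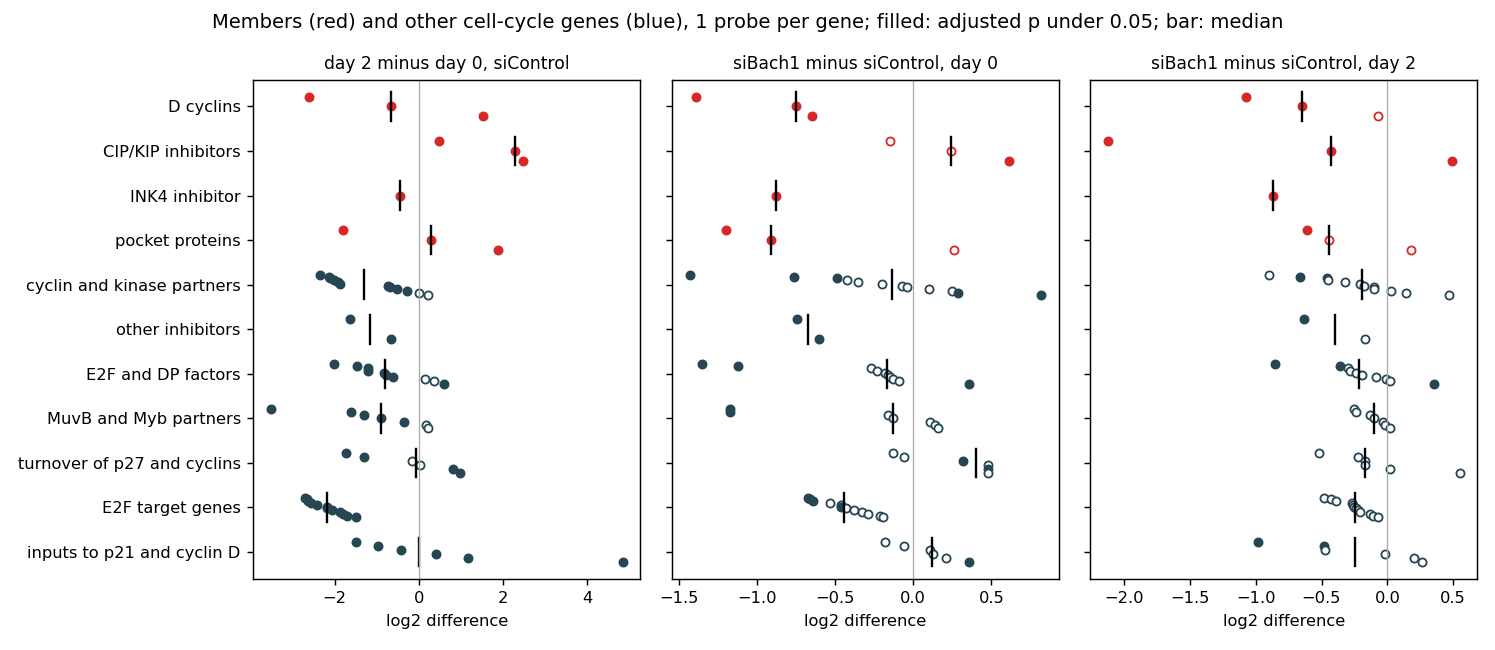
Log2 difference (x axes) of each gene in the 4 member lists (red) and the 7 other cell-cycle lists (blue), on 1 probe per gene, for day 2 minus day 0 in siControl cells and for siBach1 minus siControl at each day. Filled points passed the test, bars mark medians, and Ccne2, dim at day 2, is drawn at its measured value: the E2F target genes all lie at or below -1.5 in the first panel, with a median of -0.45 in the second.

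The genes whose course over the 12 arrays was most like that of a member were found by the root mean square difference of centred log2 values over about 21620 probes above background on every array. Ccnd1, whose own SD over arrays was 1.2, was nearest to Srxn1 (0.16), Dusp5 (0.19) and Abcb1b (0.20). Cdkn1a on its bright probe was nearest to Jsrp1 (0.10) and Jph2 (0.11), both genes of the muscle triad, and AI464131 (0.11). Rbl1 was nearest to Tuba1c (0.11), Ezh2 (0.13) and Igsf5 (0.13), and Rb1 to Arhgap28 (0.15), Dag1 (0.23) and Tmem140 (0.23). Cdkn1c had no close match, since the nearest, Socs2, Isg15 and Ly6c1, lay at 0.42 to 0.44. Ccnd2 was nearest to Gm36718, Sdc4 and Elof1 (0.17 to 0.19), Ccnd3 to Cfap74, Relb and Slc25a29 (0.13 to 0.14), Cdkn1b to Rwdd3, 6030458C11Rik and Prepl (0.08 to 0.09), Cdkn2c to Thumpd2, Lpcat1 and Itfg2 (0.08 to 0.12) and Rbl2 to Inpp5e, Insig2 and Ugp2 (0.09). The own SD was 0.35 for Cdkn1b, 0.5 for Cdkn2c and 0.2 for Rbl2, against 1 for Cdkn1a, so equal differences do not mean equally similar courses.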

How the data were processed

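Total RNA of 12 C2C12 samples was labelled with Cyanine 3 and hybridised by the authors to Agilent SurePrint G3 mouse arrays. The deposited scanner files hold intensity values, already background-corrected by Feature Extraction (version 9.1 in the submitters' processing notes and 10.7.3.1 in the file headers). The authors also deposited normalized log2 values, which were recomputed to within 0.00477 as the log2 processed signal minus the array's 75th percentile and the probe's median. They served as an alternative.

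Here log2 processed signals minus each array's 75th percentile were used, after control spots and outlier flags were left out and repeated spots were averaged. No spot was saturated. Probes entered the test when every array of some group, 3 of 3, had them flagged as well above background. One limma 3.58.1 fit in R 4.3.3 with 4 group means gave all contrasts, and Benjamini-Hochberg adjustment covered all 29664 tested probes. The difference between days is the silencing effect at day 2 minus that at day 0. The procedure was tested on simulated data with independent noise on each array. That test holds no correlation between same-numbered arrays, so it cannot show how such correlation affects the p-values. The number of arrays, 3 per group, limits the precision.

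The members and lists were chosen with earlier results of these data known. All member probes are given, with pathway genes named by the rule of at most 4 called genes with the largest change per list and comparison, and the brightest tested probe standing for a gene. Same-numbered arrays of different groups deviated together in all 18 pairs of arrays (correlations of 0.142 to 0.595), so the number may pair the samples. The main fit has no block for the number, so its p-values leave this pairing out. A fit with the number as a block was run as an alternative. Different-numbered arrays gave -0.442 to 0.264. The 11 of those 36 pairs over 0.1 all joined replicates 1 and 2, which lay on 1 slide with replicate 3 on another, so that the number is not separated from the slide. On a slide each group had its own array column, so that position and group cannot be told apart. Protein sequences were not used here. The alternatives were the scaling, background correction, filter, blocks, arrays in the fit, variance prior, the methods' t-test, call rules, slides and each array left out.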

Additional observations from a re-analysis of the deposited data

Results flagged for a closer look

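Whether silencing acted differently at day 2 than at day 0 was tested as an interaction term in limma. It passed for 2 of the 21 member probes, where 4.59% of all tested probes were called. It also passed for 5 of the 55 other genes of the pathway, against 3.08% higher and 2.74% lower over all genes tested. The effect was more negative at day 2 for Cdkn1c on A_55_P2733752, by -1.96, and for Cdkn1a on A_51_P363947, by -0.67. It was also more negative for E2f2 (-0.72) and Fbxw7 (-0.65). It was more positive at day 2 for E2f6 (1.05), Cdk6 (0.98) and E2f5 (0.76). With no filter on dim probes the member calls were lost at adjusted p of 0.083 (Cdkn1c) and 0.11 (Cdkn1a), and those of E2f6, Cdk6, E2f5, E2f2 and Fbxw7 at 0.053, 0.067, 0.10, 0.11 and 0.16. Within slide 1 all 7 were lost, at 0.058 to 0.087. E2f5 also lost its call with normexp (0.38, adjusted p of 0.062) and E2f2 with quantile normalization (-0.56, adjusted p of 0.056). For E2f6, Cdk6 and E2f5 a fall in siBach1 cells at day 0 was smaller or not called at day 2.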

How the results depend on the processing

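Each member result was recomputed under the alternatives. All 64 called results kept their direction, and 47 kept their call under every one, while 17 lost it in at least 1. Of the 41 results not called, 11 gained a call in at least 1 alternative and at least 12 changed sign. The gains of Rbl2 and Cdkn1a A_55_P1986282 at day 0 and of Cdkn1b A_52_P673863 at day 2 came only from the methods' t-test with no adjustment. Not among the 12 are Rbl1 A_55_P2601922 for silencing at day 2, which reached 0.05, and Rb1 A_55_P2638217 for the difference between days, which reached -0.13. The count of called probes for the difference between days moved from 2 to 0 in limma with no filter on dim probes and to 0 within slide 1, where 5 and 4 probes had an unadjusted p under 0.05, and to 1 with a 2-fold rule with or without the adjusted p. With the replicate number as a block the count was 4, 2 higher (Rb1 A_51_P136888 and Ccnd1) and 2 lower. Apart from those and the block values given beside Cdkn1a A_51_P363947 and Rbl1 A_55_P2601922 at day 0, the block changed no call of a member. With arrays left out in turn the count ran from 1 to 3, with the 1 without siBach1 day 2 replicate 1. The counts of the silencing effects ran from 12 to 13 at day 0 and from 12 to 14 at day 2, and those of the day changes from 19 to 20 in siControl and from 13 to 17 in siBach1 cells. Over probes above background on all 12 arrays the day changes had 18 and 14 calls, with no share of all probes under that filter given here. With no filter, Cdkn1a A_51_P363947 at day 2 lost its call at 0.069. At day 2 the methods' t-test after Benjamini-Hochberg called 6 probes, with the Ccnd2 and Ccnd3 calls lost at 0.059 to 0.098. A rule of at least 2-fold, with or without the adjusted p, left 4 probes at day 0, 3 at day 2, 11 in siControl and 10 in siBach1 cells. Quantile normalization moved the share of higher calls among all calls for the difference between days from 52% to 64.8%.

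Results near 0 changed sign without a call. The change of Ccnd2 A_65_P18532 in siBach1 cells was 0.00 with median scaling, -0.15 within slide 1 and -0.09 to 0.14 with arrays left out. The silencing effect at day 0 was 0.12 for Cdkn1a A_55_P1976204 and 0.04 for Cdkn1c with normexp, 0.08 for Cdkn1c within slide 1, and -0.15 to 0.06 and -0.36 to 0.13 with arrays left out. The difference between days was -0.22 for Cdkn1b A_52_P673863 with normexp, and within slide 1 it was 0.00 for Rbl2, 0.10 for Cdkn1a A_55_P1976204 and -0.01 for Ccnd2 A_55_P2917114. With arrays left out it was -0.12 to 0.20 for Cdkn1b A_52_P673863, -0.11 to 0.10 for Cdkn1a A_55_P1976204 and -0.06 to 0.08 for Cdkn2c A_51_P513719. The change of Cdkn1a A_55_P1986282 in siControl cells was -0.05 within slide 1 and 0.00 to 0.17 with arrays left out. The silencing effect at day 2 with arrays left out was -0.22 to 0.10 for Ccnd1, -0.11 to 0.01 for Cdkn1a A_55_P1976204 and -0.01 to 0.31 for Cdkn1a A_55_P1986282. The change of Skp1a in siBach1 cells, -0.25 and called, was 0.09 with quantile normalization. The causes were not tested. Within slide 2, which holds 1 array per group, only values with no test could be had. For the difference between days, the fit of only the arrays of the comparison is the fit of all 12 and the methods' t-test has no such term, so neither gave a value. Dim probes, among them Cdkn1a A_55_P1976204 and Cdkn1b A_52_P673863 at day 0, limit what their fold changes can show.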
